A study of Mus musculus with 6 samples.

Results

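The genes examined were Hamp, Bmp6, Hjv, Neo1, Hfe and Tmprss6, which encode the iron hormone hepcidin and the proteins that set its production. They were chosen by name, and every probe set annotated to exactly 1 of these symbols was taken, with no filter on dim signals. This gave 13 probe sets for 6 genes, of 45037 probe sets and 18193 genes with a probe set of their own on the array. Each probe set pools several short probes into a single signal intensity, given on a linear scale, and in some sets the probes can match more than 1 transcript.

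Brain RNA came from 6 female mice of 1 litter, aged 17.5 weeks by the series text and 123 days by the labels, with 1 Affymetrix Mouse Genome 430 2.0 array per mouse. The 4 knockout mice were homozygous for loss of melanotransferrin (MTf -/-, strain given as C57BL/6 - Lucy), and the 2 wild-type mice were MTf +/+ (C57BL/6). Melanotransferrin, a relative of transferrin, sits on the cell surface and can bind iron. Numbers only name a mouse, and values are listed in that order. The sources used here do not say how the null allele was made or in which cells it acts.

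Hepcidin is secreted mainly by the liver and makes cells destroy ferroportin, the only known iron exporter, so that less iron reaches the blood. In hepatocytes its gene is switched on when bone morphogenetic protein 6 (Bmp6), secreted by the endothelium, binds BMP receptors together with the co-receptor hemojuvelin (Hjv), and SMAD proteins carry the signal to the Hamp promoter. Neogenin (Neo1) binds hemojuvelin, the MHC-like protein HFE (Hfe) senses transferrin iron, and matriptase-2 (Tmprss6) cleaves hemojuvelin and so holds hepcidin down. In brain, Hamp is known as a gene of low expression, whereas neogenin is a widespread receptor for netrins and repulsive guidance molecules.

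The stretch of DNA to which SMAD proteins carry the signal is the Hamp promoter. It is shown with that of Hamp2, the neighbouring mouse paralog, because both transcripts were measured and only Hamp carries the SMAD letters searched for. Both are from RefSeq, build GRCm38.p6, minus strand, and run from 250 bases before to 50 bases after the start site, written 5′ to 3′. Hamp lies at chr7:30943980-30944279 and Hamp2 at chr7:30924132-30924431. Capitals mark GGCGCC, the core of the BMP-responsive element, and TTCNNNGAA, the STAT pattern through which interleukin-6 acts. Both patterns were searched on both strands, and the matches do not overlap.
Hamp: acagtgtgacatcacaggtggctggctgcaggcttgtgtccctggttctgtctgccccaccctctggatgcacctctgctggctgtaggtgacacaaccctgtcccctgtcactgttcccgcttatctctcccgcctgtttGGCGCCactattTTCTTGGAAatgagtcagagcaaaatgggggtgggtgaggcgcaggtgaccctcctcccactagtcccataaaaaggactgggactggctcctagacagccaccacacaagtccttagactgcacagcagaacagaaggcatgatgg
Hamp2: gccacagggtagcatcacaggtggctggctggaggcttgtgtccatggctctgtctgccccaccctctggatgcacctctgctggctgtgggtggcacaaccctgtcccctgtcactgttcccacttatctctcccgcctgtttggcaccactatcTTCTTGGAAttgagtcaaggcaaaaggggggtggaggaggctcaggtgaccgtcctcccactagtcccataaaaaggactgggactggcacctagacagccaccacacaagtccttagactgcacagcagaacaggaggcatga

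In Hamp, GGCGCC began 109 bases and the STAT pattern 97 bases before the start site, at positions -109 and -97. In Hamp2 the STAT pattern began at position -94, and GGCGCC was not found in the window. The windows were 92.9% identical over 297 aligned positions. Of 32851 promoters of the same length in the table, 11.9% held GGCGCC and 8.30% the STAT pattern, so neither is rare. A match describes letters and not a bound site. Of the members, Hamp, Bmp6, Neo1 and Hfe had an entry, and Neo1 held GGCGCC at position -28.

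The arrays had a common scale, with medians from 192.5 to 278.3. Wild type 1 had the lowest median and had 24.5% of its signals below 49.6, the value added before taking logs, against 17.6% to 20.2% on the others. Knockout 2 had little cerebellar signal: Pcp2, a Purkinje cell gene, read 185.8 on it and at least 22260 elsewhere. The knocked-out gene, Meltf, read 80.7, 132.9, 155.9 and 84.1 in the 4 knockouts, in their numbered order, and 146.5 and 228.7 in the wild types, so it did not separate the groups. It was near background, where its probes lie relative to the null allele is not known here, and it does not check the labels. All 8 neuronal markers looked up, such as Snap25 and Syt1, lay above the 40th percentile of probe set means. Each array came from a separate mouse, and p-values measure the spread between mice and arrays together.

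No member passed the test of knockout against wild type. In limma over all 45037 probe sets, 0 of the 13 member probe sets had an adjusted p below 0.05, as did 0% of all probe sets. At an unadjusted p below 0.05 there was 1 member probe set of 13, that of Tmprss6, against 6.76% of all probe sets (4.92% higher and 1.84% lower in the knockout). The 4 knockout values lay clear of both wild-type values for 2 of the 13, Tmprss6 above and Bmp6 below, which is 15.4% of the members against 16.1% of all probe sets (11.3% above and 4.81% below). The members' counts were therefore close to those of the array as a whole. Their median log2 fold change was 0.013, with 7 higher and 6 lower, against 0.078 for all probe sets. In RNA from whole tissue, fewer cells of a type and less RNA per cell cannot be told apart.

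Signals of the members ranged from well measured to background. Genes of the Y chromosome, which female mice lack, gave a view of background. The highest of 13 such probe sets of 6 genes read 47.2 to 259.3, depending on the array. The 259.3 was that of Sry on knockout 4, from probes that can also match other transcripts. On the other arrays it read 9.2 to 68.3. Of the 13 member probe sets, 6 exceeded the highest Y-linked signal on all 6 arrays. These were the probe sets of Bmp6 and Tmprss6, both of Hfe and the 2 brightest of Neo1. The mean of 4 lay at or below the 40th percentile of probe set means, equal to a signal of 142.8: the dimmer ones of Hamp and Hjv and the 2 dimmest of Neo1. They are called near background here.

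**Figure D1:**
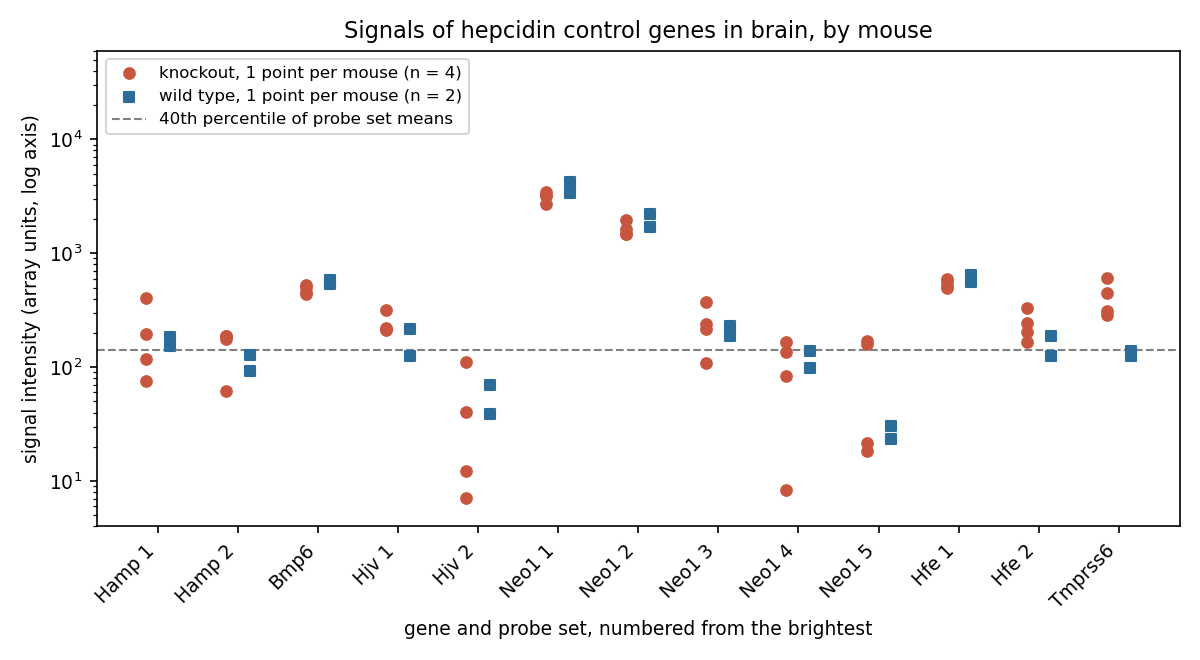
Signal intensity (array units, log axis) of the 13 member probe sets, numbered within a gene from the brightest, with 1 point per mouse: circles for 4 knockouts, squares for 2 wild types. The dashed line is the 40th percentile of probe set means (142.8). Only for Tmprss6 do all knockout points lie above both wild-type points, and only for Bmp6 all below. Heights of different probe sets are not comparable.

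Hamp, the hormone gene, was measured by 2 probe sets and lay at the level of background on some arrays with each. The brighter one (1419197_x_at, where x marks probes that can also match other transcripts) read 195.3, 75.7, 117.6 and 404.4 in the knockouts and 152 and 185.6 in the wild types. The knockout values spanned the wild-type values on both sides, with knockout 2 lowest and knockout 4 highest. The group means were 198.3 ± 146.1 (SD, n = 4) and 168.8 ± 23.8 (SD, n = 2).

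Its log2 fold change was 0.013 ± 0.50 (SE; 95% interval -1.10 to 1.12; limma adjusted p = 0.997), and it turned to -0.20 under both quantile normalisation and median centring. The dimmer probe set (1419196_at), near background, read 186.4, 61.5, 187.8 and 176.3 in the knockouts and 92.7 and 127.1 in the wild types. Here 3 knockouts lay above both wild types and knockout 2 below them, and the log2 fold change was 0.29 ± 0.42 (SE; limma adjusted p = 0.896). Each of the Hamp probe sets exceeded the highest Y-linked signal on 4 of 6 arrays. The array thus placed Hamp near its floor, and the interval of the brighter probe set reaches from -1.10 to 1.12 on the log2 scale.

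Tmprss6, the protease that cleaves hemojuvelin, had the largest difference between the groups among the 13 member probe sets. Its single probe set (1428676_at) read 310.9, 449.4, 288.4 and 604.1 in the knockouts and 139.6 and 125.6 in the wild types. All 4 knockouts lay above both wild types, and the lowest knockout was knockout 3. The group means were 413.2 ± 145.8 (SD, n = 4) and 132.6 ± 9.90 (SD, n = 2).

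On the log2 scale with 49.6 added, Tmprss6 was 2.45-fold higher in the knockout, a log2 fold change of 1.29 ± 0.34 (SE; 95% interval 0.54 to 2.05). The unadjusted p was 0.00347 and the limma adjusted p over all probe sets 0.738. The exact 2-sided permutation p was 0.0667, the smallest that 4 against 2 mice can give. This gene was already known to stand out when the members were chosen, so the value is a description of these mice and no independent support.

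The wild-type Tmprss6 signals lay just under the 40th-percentile signal. Set against the highest Y-linked signal on the same array, Tmprss6 ran from 1.07 times it, in wild type 2, to 3.52 times it. That highest signal was 47.2 in wild type 1 and 117.3 in wild type 2, and 88.4, 159, 126.8 and 259.3 in the knockouts. On this measure wild type 1 fell among the knockouts, so the groups overlapped. The mean level of Tmprss6 was at the 54.1 percentile. Among the 9008 probe sets between the 40th and 60th percentiles the median log2 fold change was 0.18, 5.75% had an unadjusted p below 0.05 and were higher in the knockout, and 15.2% had all knockouts above both wild types. Dim and middling signals as a class thus tended to be higher in the knockout, while from the 80th percentile up the median was -0.027. The Y-linked genes did so too, 4 of 6 being higher, with a summed signal of 274.5 to 568.9 in the knockouts and 143.4 and 281.3 in the wild types. Tmprss6 differed by more than these medians, and the part of this general tendency in its value was not tested.

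The direction of Tmprss6 held in each of the 13 alternatives. Its log2 fold change ran from 0.86 with an added value 4 times larger to 1.49 with one 0.25 times as large, and it was 1.35 without wild type 1, 1.24 without wild type 2 and 1.24 without knockout 2. The unadjusted p ran from 0.00165 to 0.0207, and the limma adjusted p was at least 0.319 in each.

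**Figure D2:**
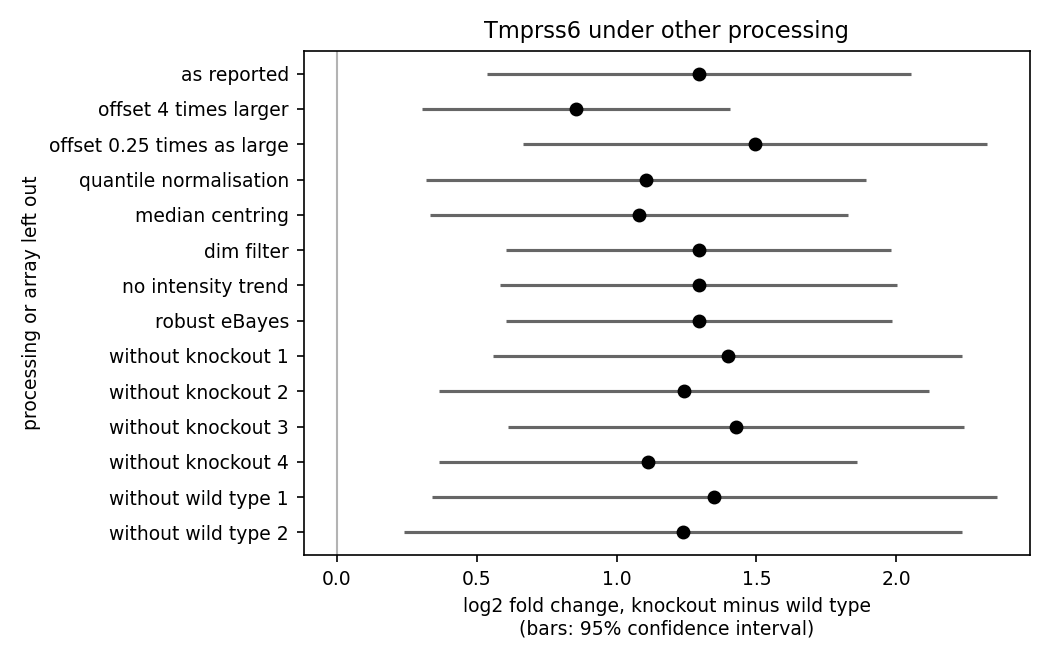
Log2 fold change of Tmprss6, knockout minus wild type, as reported and under 13 other settings, each point with its 95% confidence interval as a bar. All points lie between 0.86 and 1.49, and all intervals lie above 0, but none of these intervals is corrected for the number of probe sets tested.

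Tmprss6 and Hamp are hallmarks of hepatocytes, so the hepatocyte markers were looked up beside them. Of 11 measured markers 9 were higher in the knockout, 1 of them with an unadjusted p below 0.05 (Apoa2, an apolipoprotein of HDL). Their summed signal was 1085 to 1524 in the knockouts and 560.5 and 1112 in the wild types. Of the 11, 8 were near background, among them albumin (Alb), Ahsg and all 3 fibrinogen chains, and none was at 0. The fibrinogen gene Fgb read 3.1 to 5.1 over the 6 mice. Albumin read 76.1, 198.5, 23.4 and 335.1 in the knockouts and 36.3 and 107.2 in the wild types. Apoa2, Apoh and F2 were the 3 above that level. The part of this list in the Tmprss6 difference was not tested.

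Bmp6, the ligand that drives hepcidin in liver, was measured steadily by 1 probe set (1450759_at). It read 526.3, 454.7, 504.8 and 442.2 in the knockouts and 586.7 and 541 in the wild types. Every knockout lay below both wild types, though knockout 1 lay close to wild type 2. The means were 482 ± 40.05 (SD, n = 4) and 563.9 ± 32.3 (SD, n = 2), a log2 fold change of -0.21 ± 0.20 (SE; 95% interval -0.66 to 0.24; limma adjusted p = 0.839). The exact permutation p was 0.133. The lack of overlap did not pass the test, and 4.81% of all probe sets lay apart in this direction. Between the 60th and 80th percentiles, where the mean level of Bmp6 lay, the share was 7.01%. Bmp6 is made by endothelial cells in liver, and of 9 endothelial markers here 6 were lower, against 8434 of all 18193 genes. Of these markers 1 was lower with an unadjusted p below 0.05. Their summed signal was 7379 to 9112 in the knockouts and 11428 and 8745 in the wild types. Their part in the Bmp6 values was not tested.

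Hjv, the BMP co-receptor hemojuvelin, is known from liver and skeletal muscle and was dim in brain. The brighter of its 2 probe sets (1454137_s_at, where s marks probes shared by several transcripts) read 314.9, 211.3, 221.2 and 215.1 in the knockouts and 126.6 and 215.9 in the wild types. Wild type 2 fell among the knockouts, and only wild type 1 was low. The log2 fold change was 0.41 ± 0.34 (SE; limma adjusted p = 0.814), and without wild type 1 it was 0.11.

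The dimmer Hjv probe set (1429223_a_at) read 40.5, 110.7, 7.1 and 12.3 in the knockouts and 69.9 and 38.8 in the wild types, and exceeded the highest Y-linked signal on 1 array. Its log2 fold change was -0.28 ± 0.43 (SE), opposite in sign to that of the other probe set, and neither passed. Of the 8 muscle markers 5 were higher in the knockout, against 9759 of all 18193 genes. Of these markers 1 was higher with an unadjusted p below 0.05 (Tnnt3, a troponin gene). Their summed signal was 2236 to 2912 in the knockouts against 1876 and 1980 in the wild types. Of the 8, 4 were near background, among them the fast myosin gene Myh4, and none was at 0. Their part in the Hjv values was not tested.

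Neo1, the neogenin receptor that binds both hemojuvelin and netrins, was measured far above background by 2 of its 5 probe sets. Its brightest probe set (1447693_s_at) read 3228, 3192, 2729 and 3469 in the knockouts and 4192 and 3412 in the wild types. Knockout 4 overlapped wild type 2, and wild type 1 was highest. The means were 3155 ± 309.3 (SD, n = 4) and 3802 ± 551.5 (SD, n = 2), a log2 fold change of -0.26 ± 0.14 (SE; 95% interval -0.58 to 0.054; limma adjusted p = 0.746).

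The next Neo1 probe set (1434931_at) gave a value of the same size. It read 1973, 1475, 1465 and 1618 in the knockouts and 2224 and 1703 in the wild types, a log2 fold change of -0.26 ± 0.17 (SE; limma adjusted p = 0.776). Both values rested largely on wild type 1: without it they were -0.12 and -0.069, and without wild type 2 they were -0.41 and -0.44. Median centring, which lowered the median of all probe sets by 0.21 on the log2 scale, gave -0.48 and -0.47. Without knockout 2, the mouse with little cerebellar signal, they were -0.27 and -0.21.

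The other 3 Neo1 probe sets were dim and went different ways. The third in brightness (1444295_at) read 376.7, 215.9, 108.9 and 241.2 in the knockouts and 187.4 and 229.6 in the wild types, a log2 fold change of 0.063 that turned to -0.16 after quantile normalisation and -0.15 after median centring. The remaining pair were near background. One of them (1440789_at) had a log2 fold change of -0.33 ± 0.52 (SE). The other (1447694_x_at) read 168.9 and 159.2 in knockouts 1 and 4 and 18.3 to 30.4 in the remaining 4 mice, a log2 fold change of 0.67 ± 0.53 (SE). For Neo1, the bright probe sets are thus the ones with narrow errors.

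Hfe, the hemochromatosis protein that pairs with transferrin receptors, was measured by 2 probe sets that differed in sign. The brighter one (1422645_at) read 496.5, 595.6, 525.3 and 567.9 in the knockouts and 561.1 and 638.7 in the wild types, so that knockouts 2 and 4 lay between the wild types. Its log2 fold change was -0.12 ± 0.19 (SE; 95% interval -0.56 to 0.31; limma adjusted p = 0.904). The dimmer one (1450702_at) read 204.9, 164.9, 242.4 and 328 in the knockouts and 124.5 and 189.5 in the wild types. Only knockout 2 kept the groups from separating, and the log2 fold change was 0.45 ± 0.36 (SE; limma adjusted p = 0.807), or 0.22 without wild type 1.

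**Figure D3:**
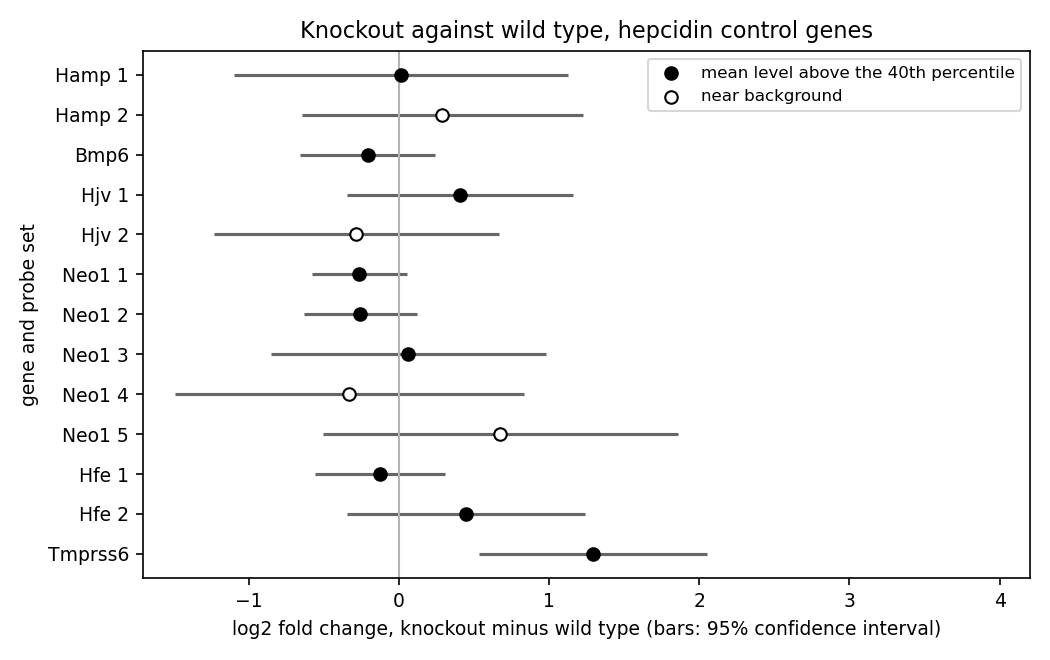
Log2 fold change, knockout minus wild type, of the 13 member probe sets, numbered within a gene from the brightest, with 95% confidence intervals as bars. Open points mark the 4 near background. Tmprss6 at 1.29 is the only one whose unadjusted interval lies clear of 0, and the intervals are narrowest for the 2 brightest Neo1 probe sets.

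The number of member probe sets with no overlap between the groups depended on single mice. It was 4 without knockout 2, where the dimmer Hamp and the dimmer Hfe probe sets joined, and 6 without wild type 2, against 22.6% and 51.6% of all probe sets in those fits. Without wild type 2, 2 member probe sets had an unadjusted p below 0.05, against 11.8% of all probe sets, and 171 of all probe sets had an adjusted p below 0.05. After median centring 3 member probe sets had an unadjusted p below 0.05, Tmprss6 and the 2 brightest of Neo1, against 8.76% of all probe sets. Among all probe sets with an unadjusted p below 0.05, 72.8% were higher in the knockout as deposited, 54.0% after quantile normalisation and 20.3% after median centring.

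The rest of the pathway was followed in 10 lists of 66 genes, 63 of them measured (Erfe, Gdf15 and Tmprss7 were not analysed here), each by its brightest probe set. None had an adjusted p below 0.05 in limma. At an unadjusted p below 0.05 there were 2 higher and 1 lower, or 4.76%, against 4.04% higher and 2.45% lower of all 18193 genes. In all, 35 were higher and 28 lower, with a median log2 fold change of 0.017 against 0.024 over all genes. The split was 29 to 34 after quantile normalisation and 13 to 50 after median centring, with medians of -0.026 and -0.20. The groups did not overlap for 10 of the 63, or 15.9%, against 16.2% of all genes.

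**Figure D4:**
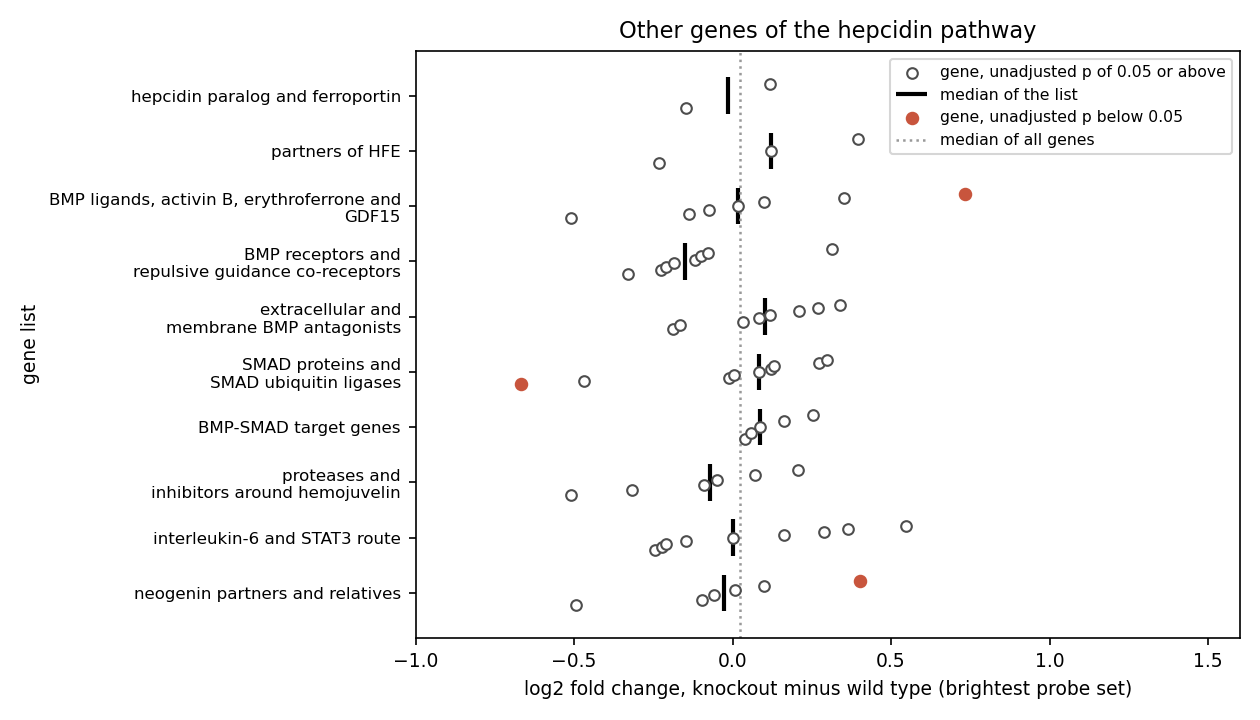
Log2 fold change, knockout minus wild type, of 63 other pathway genes, each by its brightest probe set, in 10 lists. Each circle is a gene, filled where the unadjusted p was below 0.05 (Gdf2, Smurf2 and Dcc); the black bar is the list median and the dotted line the median of all genes. List medians lie between -0.15 and 0.12.

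Among ligands, Gdf2, which encodes BMP9, read 483.1, 587.3, 285.9 and 391.6 in the knockouts and 293.9 and 186.7 in the wild types. Knockout 3 lay below wild type 1, and the log2 fold change was 0.73 ± 0.32 (SE; unadjusted p = 0.0461, limma adjusted p = 0.738), with an unadjusted p of 0.268 without wild type 2. Bmp2, the other main endothelial ligand of the hepcidin pathway, had 0.10 and turned to -0.24 without wild type 1. It was -0.083 after quantile normalisation and -0.11 after median centring. Of the 7 measured genes in this list 4 were higher and 3 lower, or 2 and 5 after either rescaling. Of the 8 BMP antagonists, such as noggin (Nog) and chordin (Chrd), 6 were higher and 2 lower, a split that was 3 and 5 after quantile normalisation and 2 and 6 after median centring.

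Of the 8 receptor and co-receptor genes 7 were lower in the knockout on the brightest probe set, none with an unadjusted p below 0.05, and the list median was -0.15. The count was the same after quantile normalisation and after median centring. The type I receptors Acvr1 and Bmpr1a had log2 fold changes of -0.33 and -0.12, and the type II receptor Bmpr2 had -0.10, which was 0.064 without wild type 1. Their dimmer probe sets differed in sign. The other 2 of Bmpr2 had 0.54 and 0.51, with all 4 knockouts above both wild types. Those of Acvr1 had 0.76 (limma unadjusted p = 0.0488, adjusted p = 0.738), with all 4 knockouts above both wild types, and -0.49. Those of Bmpr1a ran from -0.42 to 0.25, and for the lowest all 4 knockouts lay below both wild types. The value of the brightest Acvr1 probe set was -0.12 without wild type 1. Rgma and Rgmb, the neuronal relatives of hemojuvelin and ligands of neogenin, had -0.21 and -0.23. Rgma read 766.6, 772.8, 769.8 and 780.3 in the knockouts and 1010 and 803.9 in the wild types, so that the knockouts were tightly grouped and wild type 1 stood high. Its limma adjusted p was 0.807, and its value was -0.054 without wild type 1. Rgmb had -0.069 without knockout 3.

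The SMAD proteins and the genes they switch on showed no group difference that passed. Smad1, which carries the BMP signal, read 2768 to 2939 over all 6 mice, a log2 fold change of -0.011, or 0.029 after quantile normalisation. Smad5 had -0.47 on its brightest probe set and 0.48 and 0.72 on the other 2, none of which passed. The first was -0.27 without wild type 1. Smad4 had 0.085 on its brightest probe set. A dimmer Smad4 probe set had 0.41 (limma unadjusted p = 0.0273, adjusted p = 0.738), with all knockouts above both wild types. The inhibitory SMAD genes Smad6 and Smad7 had 0.30 and 0.0047. Smad6 had 0.0017 without wild type 1, 0.60 without wild type 2 and 0.063 after quantile normalisation, and Smad7 had -0.0046 after quantile normalisation and -0.21 after median centring. The 5 BMP target genes had values from 0.038 to 0.26, none with an unadjusted p below 0.05, and 4 of them were below 0 after median centring. A dimmer probe set of 1 of them, Id4, had 0.52 (unadjusted p = 0.0171, limma adjusted p = 0.738) and 0.24 without wild type 1. Id1, a direct SMAD target, had 0.16 ± 0.15 (SE) and -0.051 after median centring.

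Smurf2, a ubiquitin ligase that removes SMADs and BMP receptors, read 1096, 712.2, 935.5 and 672 in the knockouts and 1994 and 924 in the wild types. Wild type 1 alone was high, and the log2 fold change of -0.67 (unadjusted p = 0.0461, limma adjusted p = 0.738) was -0.13 without it. Another Smurf2 probe set had 0.38 with an unadjusted p of 0.0413, in the opposite direction.

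Of the 6 measured proteases and inhibitors around hemojuvelin, such as Furin, which cuts its precursor, 2 were higher and 4 lower. Of the 9 genes of the interleukin-6 and STAT3 route, which drives hepcidin in inflammation, 5 were higher and 4 lower. On the brightest probe sets none of either list had an unadjusted p below 0.05. Timp3, of the protease list, had 0.070 on its brightest probe set. Dimmer Timp3 probe sets had 0.30 and 0.67 (limma unadjusted p = 0.0377 and 0.0459, adjusted p = 0.738 for each), with all knockouts above both wild types. A dimmer probe set of Jak1, of the second list, is given further below. The IL-6 gene itself (Il6) read 2.2 to 57.2 over the 6 mice, near background. After median centring these splits were 0 and 6, and 3 and 6.

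Around HFE, the second transferrin receptor gene Tfr2 had a log2 fold change of 0.39 (standard error 0.27), which was 0.16 without wild type 2, 0.63 without wild type 1 and 0.18 after median centring. The first, Tfrc, had -0.23, and -0.44 after median centring. Its dimmer probe sets, near background, had 0.28 and 0.17. B2m, which encodes the light chain that HFE needs to reach the cell surface, had 0.12, and -0.094 after median centring. Another bright B2m probe set had -0.035. Slc40a1, the ferroportin gene on whose product hepcidin acts, read 777.5, 731, 698.3 and 752.3 in the knockouts and 837.8 and 810.8 in the wild types. All 4 knockouts lay below both wild types by a small margin, and the log2 fold change of -0.15 ± 0.16 (SE) did not pass (limma adjusted p = 0.860). On its dimmer probe set the groups overlapped, with a log2 fold change of -0.24. Hamp2 was near background, at 59.6 to 188 over the 6 mice (log2 fold change 0.12, below 0 after either rescaling).

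Of the 6 neogenin partners and relatives 3 were higher and 3 lower, or 1 and 5 after median centring. Dcc, the netrin receptor most closely related to neogenin, read 1914, 2293, 1838 and 1675 in the knockouts and 1224 and 1690 in the wild types. Knockout 4 lay just under wild type 2, and the log2 fold change of 0.40 ± 0.17 (SE; unadjusted p = 0.0430, limma adjusted p = 0.738) was 0.18 without wild type 1 and 0.19 after median centring. A dimmer Dcc probe set had 0.67 with an unadjusted p of 0.00330 and the same adjusted p. Ntn1, the netrin ligand of both receptors, was singled out after its values were seen: knockout 2 read 280.5 and the other 5 mice 783.9 to 970.8. Knockout 2 was also the mouse with little cerebellar signal, with Gabra6 of granule cells at 87.6 against at least 6938 elsewhere, and the part of this in the Ntn1 value was not tested.

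For each member, the genes whose brightest probe set followed it most closely over the 6 arrays were listed, as Pearson correlations of log2 values among 13299 genes above the 40th percentile. With 6 arrays such values are high for many genes, and 165 of the 13299 exceeded 0.9 for Tmprss6. Its closest were Celf2, an RNA-binding protein gene, Kctd16, a subunit gene of GABA-B receptors, and Sphk1, a sphingosine kinase gene, with 0.988, 0.987 and 0.987. Celf2 read 6785, 8362, 6866 and 8987 in the knockouts and 4737 and 5034 in the wild types, the order of mice being the same as for Tmprss6 except for knockouts 1 and 3 and the 2 wild types. The closest to Bmp6 were Gba2, a glucosylceramidase gene, at 0.999, Dennd4c at 0.988 and Zfp287 at 0.981. The closest to Neo1 were Zfp467 and Ampd3, at 0.995 each, and Mapk4 at 0.988. Hamp was followed by 2610035D17Rik, Zfp229 and Rbl1, at 0.995 to 0.988, and Hjv by Accs, Lgr5 and Trim65, at 0.993 to 0.986. For Hfe they were Ift52, a gene of intraflagellar transport, at 0.985, Card6 at 0.981 and Car13 at 0.976, and 35 genes exceeded 0.9. All these arrays share their scaling but differ in median signal, from 192.5 in wild type 1 to 278.3 in knockout 4. The part of this in the correlations was not tested, and the values describe likeness only.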

How the data were processed

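Per the labels, total RNA from brain was hybridised to 1 array per mouse. The authors deposited a table of signal intensity values; GCOS 1.3 is named in the submitters' processing notes, while the summary method and scaling target are not given in the sources read. The mean of the middle 96% of values was 1000.0 on every array, so the deposited intensity values carry a common scale. Of 45101 probe sets, 64 controls were left out. Of the rest, 34945 had 1 symbol in the platform annotation, 932 several and 9160 none.

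After 49.6 (the table's 20th percentile) was added, which understates changes of dim genes, log2 values of all 45037 probe sets were fitted without filter or covariate (limma 3.58.1, R 4.3.3; lmFit, eBayes with trend; 2-sided, Benjamini-Hochberg over all probe sets, threshold 0.05). The fit was tested on simulated data. Exact permutation tests ran over the 15 ways to choose 2 of 6 arrays. The number of arrays limits the precision.

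The members, lists and tests were chosen with earlier results of these data known. Named pathway genes were those with an unadjusted p below 0.05 on the brightest probe set. Slc40a1, Tfr2, Tfrc, B2m, Rgma, Rgmb, Smad1, Smad5, Smad6, Smad7, Id1, Acvr1, Bmpr1a, Bmpr2 and Bmp2 were named whatever their p. Hamp2, Il6, Ntn1, Smad4, Timp3, Id4, Inhbb, Jak1 and Twsg1 were added later. Of these, Smad4, Timp3, Id4, Inhbb, Jak1 and Twsg1 had a dimmer probe set with an unadjusted p below 0.05. Alternatives were other added values, quantile normalisation, median centring, leaving out the dimmest 40% of probe sets, eBayes without trend or robust, all probe sets of a gene, and leaving out each array.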

Additional observations from a re-analysis of the deposited data

Results flagged for a closer look

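In 31 sets of 4 knockout values, those of the 13 member probe sets and of 18 named pathway genes, 4 held a mouse set far apart from the other 3, where chance flags about 1 set in 20. On the dimmer Hamp probe set knockout 2 read 61.5 against 176.3 to 187.8 in the other knockouts. On the brighter Hjv probe set knockout 1 read 314.9 against 211.3 to 221.2. For Bmpr2, knockout 4 read 9603 against 8863 to 8892, and for Smad5 the same mouse read 1139 against 508 to 581.4.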

How the results depend on the processing

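Of the log2 fold changes of 13 member probe sets and 18 named pathway genes, 22 kept their direction in each alternative run and 9 did not; the cause was not tested. The number of all probe sets with an adjusted p below 0.05 in limma was 0 (3046 at an unadjusted p below 0.05) and ran from 0 to 171 with 1 array left out, the 171 coming without wild type 2. Members with an unadjusted p below 0.05 numbered 1 to 2, and members with no overlap 2 to 6, with 1 array left out; after median centring they numbered 3 and 4. Over all probe sets these shares ran from 3.61% to 11.8% and from 22.3% to 51.6%, and were 8.76% and 18.1% after median centring. The pathway median was -0.026 after quantile normalisation, -0.20 after median centring, 0.0997 with the mean of all probe sets per gene, and -0.029 to 0.11 with 1 array left out. Quantile normalisation turned the brighter Hamp (-0.20), the third Neo1 (-0.16), Bmp2 (-0.083), Smad1 (0.029) and Smad7 (-0.0046). Median centring turned the same Hamp (-0.20) and Neo1 (-0.15) probe sets, B2m (-0.094), Bmp2 (-0.11), Smad7 (-0.21) and Id1 (-0.051), and the smaller added value turned that Hamp probe set (-0.024). With 1 array left out it ran from -0.34 to 0.28, Neo1 from -0.16 to 0.32 on the third and -0.57 to 0.067 on the fourth probe set, Bmp2 from -0.24 to 0.44, Bmpr2 from -0.26 to 0.064, Smad1 from -0.052 to 0.031 and Smad7 from -0.28 to 0.29. With 1 wild-type mouse left, the lone array is assumed to vary like the knockouts. The filter on dim probe sets left no value for the 4 members near background. No paired analysis was possible because the labels give no numbers shared between the groups.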

Other observations

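Taking all 138 probe sets of the 63 pathway genes in place of the brightest of each, 12 had an unadjusted p below 0.05 and were higher in the knockout and 1 was lower, or 9.42%, against 6.76% of all probe sets. None had an adjusted p below 0.05 in limma. The probe sets of 2 genes with the largest values, picked after they were seen, were 1 of the kinase Jak1 at a log2 fold change of 1.33 and 1 of Twsg1, an extracellular BMP modulator, at 1.26, while their brightest probe sets had -0.15 and -0.17. Both rested on wild type 1: without it they were 0.13 and 0.54, with unadjusted p of 0.593 and 0.362. The Jak1 probe set read 582.6 to 640.3 in the knockouts and 63.3 and 549 in the wild types. The Twsg1 probe set was near background. For Inhbb, which encodes the activin B subunit, the brightest probe set had -0.51 and another 0.79, and for Acvr1 the brightest had -0.33 and another 0.76, which was 0.31 without wild type 1.

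Of 8 measured cerebellar markers none was higher in the knockout. Knockout 2 was the lowest mouse for each of the 8, so this count rests in part on that mouse, and it was not taken without it. The list had a summed signal of 22500 in knockout 2 and 95347 to 134774 in the other 5 mice. Of the astrocyte, oligodendrocyte, microglia, choroid plexus, meninges and blood lists, 4 of 7, 1 of 6, 3 of 7, 3 of 8, 3 of 8 and 1 of 5 measured genes were higher in the knockout. The astrocyte genes Gfap and Aqp4 were lower (log2 fold changes -0.63 and -0.64), each with a limma unadjusted p below 0.05 and an adjusted p of 0.738. For both, all 4 knockouts lay below both wild types. The summed signals of these lists overlapped between the groups. That of the astrocyte list came largely from brighter genes such as Aldoc and Slc1a2, so it does not show Gfap and Aqp4.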
